A study of Drosophila melanogaster with 6 samples.

Results

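The abdomen of male Drosophila melanogaster was compared with the head plus thorax of the same kind of males, both taken after 2 h with rival males. The comparison rests on 4 of the 6 libraries of the series, namely the pair from the abdomen pool and the pair from the head-thorax pool, chosen by body part and time alone. Flies were wild-type males of the Dahomey strain in both pools, so no allele or agent separates them. They had been raised at 100 larvae per vial, kept 10 males to a vial after eclosion and placed in individual vials from an age of 1 d for 5 d. The abdomen at 2 h was 1 pool of 40 body parts and the head-thorax at 2 h was another, and each pool was divided into 2 libraries sequenced on separate lanes with single-end reads of 50 nt. The 2 remaining libraries of the series, from a head-thorax pool after 26 h with rivals, were used here for the technical spread and as a second level of reference. The spread between split libraries is technical, so every p-value below compares these pools and says nothing of the variation between flies.

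Within the comparison, the genes followed are those that name the working parts of tissues outside the gonads, eye and nervous system: transcription factors, transporters, secreted proteins and enzymes. In 28 lists of these 4 classes, 667 genes were present among the 16942 genes of the files, 643 were abundant enough to test and 441 reached 20 CPM in either pool, CPM being a gene's count scaled to the library's effective size. Each body part holds organs the other lacks. The male abdomen carries most of the midgut, the Malpighian tubules that form urine, the oenocytes that make cuticular hydrocarbons, the accessory glands and testes, and part of the fat body. The head and thorax carry the brain, the eyes, the flight muscle, part of the foregut, and fat body of their own. Members of gene families that share a biochemical task are often used by different organs, and body regions along the axis are marked by the Hox transcription factors.

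Total counts were 21070598 and 31276428 in the abdomen libraries, and 32627878 and 22604036 in the head-thorax libraries. The share of mitochondrially encoded transcripts was 8.04% and 7.46% in abdomen, against 17.3% and 17.9% in head-thorax. The reproductive, eye, flight muscle and tubule markers went with the labels. The 7 male reproductive genes summed to 6888 and 6818 CPM in abdomen against 9.52 and 6.66 CPM in head-thorax, where the seminal fluid gene Acp29AB was at 0. The 6 eye genes summed to 21.1 and 15.5 CPM in abdomen against 11074 and 11109 CPM in head-thorax, and the 5 flight muscle genes to 531 and 526 CPM against 5080 and 5149 CPM. The 5 Malpighian tubule genes summed to 195 and 198 CPM in abdomen and to 23.6 and 20.99 CPM in head-thorax, so tubule transcripts were not absent from the head-thorax pool. Of these 5, Uro, Irk3, NaPi-T and ZnT35C are themselves members of the lists below. Fat body genes summed to 4237 and 4189 CPM in abdomen against 5996 and 6065 CPM in head-thorax with Fbp1 at 0 in abdomen, and their members went both ways, as given below. Midgut genes summed to 4508 and 4771 CPM against 3902 and 3803 CPM. The 5 hemocyte genes, of which Hml is also a list member, summed to 136 and 137 CPM against 262 and 265 CPM, with 3 lower. The 3 heart genes summed to 5.49 and 4.28 CPM against 4.60 and 5.29 CPM, with 1 lower. In such bulk samples, fewer cells of a type and less RNA per cell cannot be told apart, and the part of tissue make-up in any result below was not tested.

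A gene was called higher or lower in abdomen when its adjusted p was under 0.05 and its difference at least 2-fold. Adjusted p-values are from edgeR's quasi-likelihood test with Benjamini-Hochberg adjustment over all 14694 genes tested. Log2 ratios are of abdomen over head-thorax and carry the standard error of the fit. Calls were the rule rather than the exception: 35.6% of all genes tested were higher in abdomen and 21.7% were lower, 57.3% in all. Of the 643 list members tested, 165 were higher, 169 lower and 309 not called, with a median log2 ratio of −0.19 against 0.06 for all genes tested. At 20 CPM or more in either pool the background was 30.4% higher and 25.7% lower, 56.1% in all, and of the 441 list members there 94 were higher and 118 lower. Against this background, 18 of the 441 members differed by as much between the head-thorax pools of 26 h and 2 h, where 8.17% of all genes at that level did.

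Split libraries of 1 pool lay close together. By a two-sided exact binomial test with Benjamini-Hochberg adjustment, 5 of 142 genes chosen by rule for naming differed between the abdomen libraries, by at most 1.06-fold. In the head-thorax pool at 2 h 2 of 135 differed, by at most 1.02-fold. These were Tsf1 and apolpp in both pools, and FASN2, GstD1 and Tps1 in abdomen. In every list member called, the abdomen libraries and the head-thorax libraries did not overlap. With a 2-fold limit and split libraries this close, that is all but fixed by the call itself, which 57.3% of all genes tested received. It adds no support to a call, here or where it is repeated below.

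**Figure D1:**
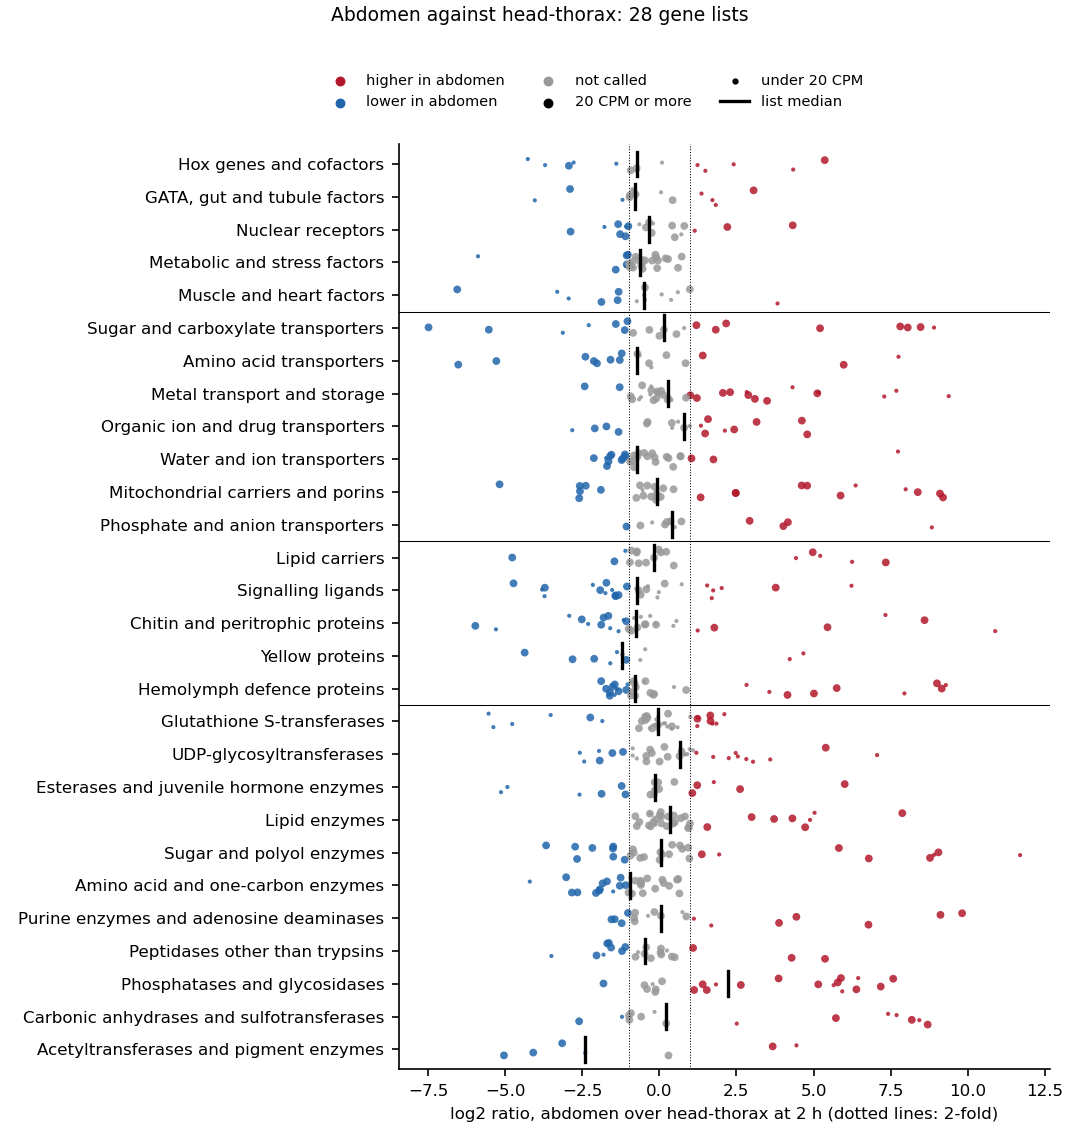
Log2 ratio of abdomen over head-thorax at 2 h for each tested gene of the 28 lists, by list; large points are genes at 20 CPM or more in either pool and the black bar is the list median. Transcription factors and secreted proteins have medians left of 0, and phosphatases and glycosidases have theirs at 2.24.

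From the values, the counting seems to have used each gene's whole span and to have assigned a read to every gene it overlaps, so neighbours share reads. A gene is said here to have reads of its own when annotated genes overlapping it hold at most 20% of its count in the higher pool, which held for 315 of the 441 members. Where a list's count moved by more than 1.5 times once the overlapping genes' counts were taken off, that count is given beside it. Here and below they were taken off only in the pool where a gene was higher. The value left is a bound on that gene's difference, and a turned sign does not show the opposite direction. A call described as lost fell under 2-fold or past the adjusted p of 0.05 under the setting named. Among genes at 20 CPM or more with reads of their own, 26.6% of all such genes were higher in abdomen and 27.3% were lower. The share is judged in the higher pool alone, so the lower pool's value can hold more shared reads, as for the chitinases Cht8 and Cht12, which overlap each other. A further 63 tested members span an annotated transposable element, whose reads could have been counted to them. Among the genes named below these are lab, pb, Abd-B, oc, Sox100B, Eip78C, eg, crc, Dif, Mef2, ap, Glut1, Indy, path, Gat, MRP, kcc, MFS17, apolpp, Npc2f, Actbeta, Wnt4, Wnt6, Idgf4, yellow-h, Ugt50B3, alpha-Est5, Nep2, Drip and AANATL3.

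Of 91 transcription factors tested, 13 were higher in abdomen (14.3%), 27 lower (29.7%) and 51 not called, with a median log2 ratio of −0.62. Over all genes 35.6% were higher and 21.7% lower. Of the 54 at 20 CPM or more 4 were higher and 15 lower. The Hox genes, homeodomain factors that give segments their identity, followed their order along the body where they were called, apart from lab. Dfd, which acts in the maxillary and mandibular segments of the head, had 0.296 and 0.595 CPM in the abdomen libraries, against 9.08 and 9.40 CPM in the head-thorax libraries, a log2 ratio of −4.27 ± 0.19 (adjusted p = 1.63e-37). Ubx, which acts in the posterior thorax and anterior abdomen, had 13.6 and 13.97 CPM in the abdomen libraries, against 5.67 and 6.11 CPM in the head-thorax libraries (1.24 ± 0.096, adjusted p = 1.53e-21). abd-A had 15.1 and 13.8 CPM in the abdomen libraries, against 2.66 and 2.74 CPM in the head-thorax libraries (2.41 ± 0.12, adjusted p = 1.29e-34). The excess grew again at Abd-B, the most posterior gene of the complex. Abd-B had 17.4 and 19.4 CPM in the abdomen libraries, against 0.877 and 0.958 CPM in the head-thorax libraries (4.34 ± 0.14, adjusted p = 4.90e-48). In all 4 genes no abdomen library overlapped a head-thorax library.

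The other Hox genes differed less. Antp, of the thorax, had 9.25 and 9.29 CPM in the abdomen libraries, against 15.5 and 15.4 CPM in the head-thorax libraries, a log2 ratio of −0.74 ± 0.082 that stayed under 2-fold, with 118 of its 547 abdomen counts and 2 of its 834 head-thorax counts in an overlapping long noncoding RNA. pb, of the mouthparts, had 55.2 and 52.5 CPM in the abdomen libraries, against 89.9 and 88.7 CPM in the head-thorax libraries (−0.74 ± 0.038), also not called. lab, a head gene that is also used in the midgut, ran against the order, with 3.08 and 3.003 CPM in the abdomen libraries, against 1.10 and 1.05 CPM in the head-thorax libraries (1.49 ± 0.21, adjusted p = 8.29e-10). Scr could not be read, because overlapping long noncoding RNAs hold 89.0% of its count in abdomen. Its values were 12.4 and 12.4 CPM in abdomen, against 12.0 and 11.2 CPM in head-thorax (0.09 ± 0.082). Few of these genes reached 20 CPM, and pb alone did among the 8 Hox genes.

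**Figure D2:**
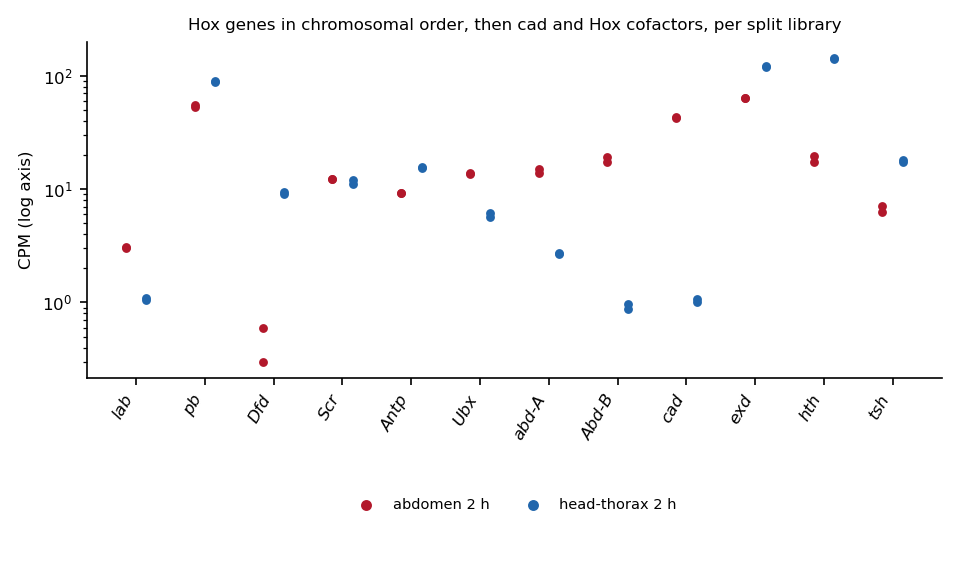
CPM (log axis) of the 8 Hox genes in chromosomal order, then of cad and the cofactors exd, hth and tsh, in each split library of abdomen (red, left of each pair) and head-thorax (blue). Dfd lies lower in abdomen, Ubx, abd-A and Abd-B lie higher, and cad has the widest gap upward.

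The largest log2 ratio of the list was outside the Hox complexes. cad, a homeodomain factor of posterior identity that is also kept in the posterior midgut, had 42.7 and 43.2 CPM in the abdomen libraries, against 1.06 and 1.004 CPM in the head-thorax libraries (5.36 ± 0.11, adjusted p = 9.58e-66). hth, the cofactor that carries exd into the nucleus, had 17.2 and 19.4 CPM in the abdomen libraries, against 139.6 and 144 CPM in the head-thorax libraries (−2.94 ± 0.044, adjusted p = 8.86e-76). Its partner exd, at 63.2 and 63.1 CPM in abdomen, against 118 and 122 CPM in head-thorax, stayed under 2-fold (−0.93 ± 0.035). The trunk zinc finger tsh and the head homeodomain factors oc and ems, all under 20 CPM, were lower in abdomen, with log2 ratios of −1.40, −2.78 and −3.71. In this list of 14 genes 5 were higher, 5 lower and 4 not called.

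Among 14 GATA, gut and tubule factors, 4 were higher in abdomen, 3 lower and 7 not called. Ptx1, a homeodomain factor of the Pitx family, had 24.0 and 24.7 CPM in the abdomen libraries, against 3.13 and 2.65 CPM in the head-thorax libraries (3.06 ± 0.100, adjusted p = 5.77e-48). The GATA factor of the endoderm, GATAe, had 16.4 and 16.2 CPM in abdomen, against 6.89 and 5.52 CPM in head-thorax (1.37 ± 0.094). Sox100B, a SoxE factor, was lower, with 5.32 and 4.70 CPM in abdomen, against 36.0 and 38.1 CPM in head-thorax (−2.90 ± 0.076, adjusted p = 9.46e-56). Another GATA factor, grn, was lower at a low level, with 0.338 and 0.340 CPM in abdomen, against 5.42 and 5.98 CPM in head-thorax (−4.04 ± 0.23). GATAd, at 22.6 and 20.3 CPM in abdomen, against 36.4 and 36.1 CPM in head-thorax, was not called (−0.77 ± 0.055). Of the remaining called genes, pdm2 was lower (−1.19), but the call was lost with raw totals (−0.99) and without abdomen library 1 or head-thorax library 1 (−0.91 each). Sox21a was higher (1.83), but its ratio was 0.077 against the 26 h head-thorax pool. For nub (1.72) an overlapping gene holds 97.2% of its abdomen count. The list's count of lower genes was 5 against the 26 h pool.

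Nuclear receptors, the ligand-gated factors that include the ecdysone cascade, were lower for 7 and higher for 3 of 19 tested, or 3 and 0 with overlapping genes' counts taken off. The count of lower receptors was 4 with DESeq2 size factors and 4 against the 26 h pool, and 3 of the 7 had reads of their own. Eip78C, an ecdysone-induced receptor, had 24.0 and 22.2 CPM in the abdomen libraries, against 54.5 and 56.8 CPM in the head-thorax libraries (−1.27 ± 0.049, adjusted p = 2.59e-42). Hr38, an orphan receptor, was lower below 20 CPM (−1.78), and Hr96, a receptor of lipid and xenobiotic metabolism, was not called at 19.2 and 17.8 CPM in abdomen, against 21.5 and 22.2 CPM in head-thorax (−0.25 ± 0.064). Of the 3 higher receptors, eg lay below 3 CPM, at 1.73 and 2.35 CPM in abdomen, against 1.06 and 0.776 CPM in head-thorax, and lost the call without abdomen library 2 (0.88) or head-thorax library 2 (0.97). The other two share their reads with genes of another kind. svp had 56108 counts in abdomen against 2560 in head-thorax, but the seminal fluid gene Sfp87B, which overlaps it, held 53546 and 50. Hnf4 had 15120 counts against 2994, of which the overlapping gene CatB held 11922 and 35. With the overlapping genes' counts taken off in abdomen alone, the log2 ratios turned to −0.45 for svp and −0.09 for Hnf4. No excess in abdomen can thus be read for either gene itself.

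Of 29 factors of metabolism and stress, 0 were higher in abdomen, 6 lower and 23 not called, with a median of −0.62. With overlapping genes' counts taken off 2 were lower. With DESeq2 size factors 2 were lower. The other 4, whose log2 ratios lay between −1.08 and −1.02 in the fit used throughout, then fell under 2-fold. The NF-kappaB factors dl and Dif, which answer Toll signalling, were among the 6. dl had 24.6 and 24.9 CPM in the abdomen libraries, against 66.6 and 65.6 CPM in the head-thorax libraries (−1.42 ± 0.046, adjusted p = 3.02e-48). Dif had 42.3 and 40.9 CPM in abdomen, against 85.9 and 87.2 CPM in head-thorax (−1.06 ± 0.040), and CrebB, the cAMP-response factor, had 29.9 and 28.8 CPM in abdomen, against 59.3 and 59.7 CPM in head-thorax (−1.02 ± 0.045). Both calls were lost with DESeq2 size factors, at −0.91 for Dif and −0.88 for CrebB. They were also lost with overlapping genes' counts taken off in head-thorax alone, at −0.82 for Dif and −0.75 for CrebB. With the overlapping por taken off both pools, CrebB kept 1336 counts in abdomen and 2664 in head-thorax. Dif lost its call against the 26 h pool (−0.96), and CrebB without abdomen library 2 (−0.98) or head-thorax library 1 (−0.96). CG15141, which overlaps Dif, held 2696 counts in abdomen against 2444 for Dif, and 712 against 4654 in head-thorax. The abdomen level of Dif can thus not be read apart from that gene. The C/EBP factor slbo, at a low level, had 0.127 and 0.113 CPM in abdomen, against 7.61 and 6.75 CPM in head-thorax (−5.88 ± 0.27). crc, the fly ATF4, was the most abundant of those not called, with 484 and 477 CPM in abdomen, against 810.3 and 826 CPM in head-thorax (−0.77 ± 0.026).

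Muscle and heart factors were lower for 6 of 15 and higher for 1. The count of higher genes was 2 with DESeq2 size factors, without abdomen library 1 and without head-thorax library 2, and 0 at 20 CPM or more. vg, the wing factor that is also used in flight muscle, had 0.338 and 0.198 CPM in the abdomen libraries, against 24.4 and 24.2 CPM in the head-thorax libraries (−6.56 ± 0.16, adjusted p = 2.15e-58). Its partner sd, with 46.1 and 46.3 CPM in abdomen, against 64.3 and 63.2 CPM in head-thorax, was not called (−0.47 ± 0.041), with 727 of its 2723 abdomen counts and 5 of its 3440 head-thorax counts in an overlapping gene. Mef2, the myocyte enhancer factor, had 27.2 and 25.4 CPM in the abdomen libraries, against 96.4 and 96.1 CPM in the head-thorax libraries (−1.88 ± 0.043, adjusted p = 1.09e-60), and the LIM homeodomain factor ap had 19.1 and 20.1 CPM in abdomen, against 48.4 and 50.2 CPM in head-thorax (−1.32 ± 0.052). Below 20 CPM, slou and mid were lower (−3.31 and −2.94). The higher gene, lbe, had 2 counts in the head-thorax pool and stood at 0.549 and 0.595 CPM in abdomen, a ratio of 15.5 (95% exact counting interval 3.98 to 133). The 5 flight muscle markers above were all lower in abdomen, with summed levels given there, and their part in these values was not tested.

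Of 164 transporters tested, 51 were higher in abdomen, 38 lower and 75 not called, with a median of −0.02. At 20 CPM or more 37 of 130 were higher and 34 lower. These shares are near those over all genes given above. Of 21 sugar and carboxylate transporters, 8 were higher (4 with overlapping genes' counts taken off) and 7 lower. The sodium-coupled paralogues kumpel, bumpel and rumpel went in opposite directions. kumpel had 119 and 119 CPM in the abdomen libraries, against 26.9 and 26.1 CPM in the head-thorax libraries (2.17 ± 0.042, adjusted p = 1.13e-66). bumpel had 0.169 and 0.142 CPM in the abdomen libraries, against 29.0 and 27.1 CPM in the head-thorax libraries (−7.49 ± 0.17, adjusted p = 2.41e-61). rumpel had 0.845 and 0.595 CPM in the abdomen libraries, against 32.1 and 32.7 CPM in the head-thorax libraries (−5.53 ± 0.12, adjusted p = 3.10e-62). Abdomen was thus higher for kumpel and lower for the 2 paralogues, with no overlap between libraries.

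Glut3 and Smvt were higher in abdomen. The glucose-transporter relative Glut3 had 26.4 and 25.7 CPM in the abdomen libraries, against 0.157 and 0.0456 CPM in the head-thorax libraries (7.81 ± 0.19, adjusted p = 3.23e-58). Smvt, named after the mammalian sodium-dependent multivitamin transporter, had 91.3 and 94.6 CPM in the abdomen libraries, against 2.47 and 2.56 CPM in the head-thorax libraries (5.21 ± 0.072, adjusted p = 1.79e-78). The facilitative glucose transporter Glut1 was lower, with 46.6 and 45.4 CPM in abdomen, against 99.9 and 99.8 CPM in head-thorax (−1.12 ± 0.038), a call lost with DESeq2 size factors (−0.98). Below 20 CPM in both pools, sut3 was higher with 2 counts in head-thorax and a ratio of 537 (95% exact counting interval 148 to 4440.5), and the monocarboxylate transporter Sln was lower (−3.13). Indy, the citrate carrier of the plasma membrane, had 146 and 149 CPM in abdomen, against 146 and 149 CPM in head-thorax, and was the member with no visible difference at all.

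Amino acid transporters were lower for 8 of 17 (5 with overlapping genes' counts taken off) and higher for 3, with a median of −0.71. The shares were 47.1% lower and 17.6% higher, against 21.7% and 35.6% over all genes. The glutamate and aspartate carrier Eaat2 had 2.15 and 2.10 CPM in the abdomen libraries, against 193 and 198 CPM in the head-thorax libraries (−6.52 ± 0.062, adjusted p = 5.75e-92). Gat, the carrier of the inhibitory transmitter GABA, had 3.89 and 3.15 CPM in the abdomen libraries, against 133 and 137 CPM in the head-thorax libraries (−5.29 ± 0.062, adjusted p = 9.61e-85). Eaat1 had 109.8 and 110.0 CPM in abdomen, against 445 and 449 CPM in head-thorax (−2.02 ± 0.029). ine, a carrier of the neurotransmitter transporter family, had 33.6 and 34.3 CPM in abdomen, against 79.6 and 78.9 CPM in head-thorax (−1.22 ± 0.042). Its call was lost with overlapping genes' counts taken off in head-thorax alone (−0.99). With the overlapping FIG4 taken off both pools, ine kept 1061 counts in abdomen and 3643 in head-thorax. Neuron markers, at 171 and 176 CPM in abdomen against 1987 and 2016 CPM in head-thorax, moved with these lower carriers. Glial markers were not summed, so the cells that hold these carriers cannot be told. The part of neurons or glia in the result was not tested. Members of the same neurotransmitter transporter family were among the 3 higher genes. Ntl had 51.1 and 48.2 CPM in the abdomen libraries, against 0.845 and 0.684 CPM in the head-thorax libraries (5.98 ± 0.11, adjusted p = 1.35e-68), and bdg had 47.3 and 45.3 CPM in abdomen, against 16.8 and 18.2 CPM in head-thorax (1.41 ± 0.056). The third, polyph, stood at 4.82 and 5.04 CPM in abdomen with 1 count in head-thorax, a ratio of 267 (95% exact counting interval 47.5 to 10571). path, an amino acid transporter of the SLC36 family, was not called at 148 and 143 CPM in abdomen, against 237 and 238 CPM in head-thorax.

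Of 34 genes of metal handling tested, 14 were higher and 2 lower, with 18 not called, and 10 of the 14 had reads of their own. The share higher was 41.2%, against 35.6% over all genes. All 5 metallothioneins, small cysteine-rich proteins that bind copper, zinc and cadmium, were higher. MtnA had 896 and 881 CPM in the abdomen libraries, against 214 and 212 CPM in the head-thorax libraries (2.06 ± 0.027, adjusted p = 2.12e-80). MtnC had 73.7 and 70.0 CPM in abdomen, against 6.23 and 6.52 CPM in head-thorax (3.49 ± 0.064) and MtnE 36.8 and 37.3 CPM in abdomen, against 4.45 and 4.15 CPM in head-thorax (3.10 ± 0.081). MtnB and MtnD lay under 10 CPM, with log2 ratios of 4.32 and 2.83. All 10 abdomen values of the family lay above the head-thorax values of the same gene.

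Zinc and copper carriers were also among the higher genes. ZnT35C, which moves zinc in the Malpighian tubules, had 35.2 and 34.4 CPM in the abdomen libraries, against 4.95 and 4.33 CPM in the head-thorax libraries (2.89 ± 0.082, adjusted p = 8.55e-53), and Zip71B, an importer of the ZIP family, had 38.2 and 36.9 CPM in abdomen, against 7.70 and 7.53 CPM in head-thorax (2.29 ± 0.070). Ctr1C, the copper importer of the male germline, had 2.99998 and 2.83 CPM in abdomen and no count in head-thorax, which makes it at least 52.1-fold higher when the floor is set at 3 counts in the whole pool. The 2 lower genes were Tsf1 and Mco1. Tsf1, the iron-binding transferrin of the hemolymph, had 823 and 871 CPM in the abdomen libraries, against 2091 and 2045 CPM in the head-thorax libraries (−1.29 ± 0.028, adjusted p = 9.44e-63). Against the 26 h head-thorax pool its ratio was −0.57 and the call was lost, which left 1 lower gene. Mco1, a multicopper oxidase, had 7.01 and 6.88 CPM in abdomen, against 36.3 and 38.4 CPM in head-thorax (−2.42 ± 0.070). The zinc exporter ZnT63C was not called at 58.6 and 59.6 CPM in abdomen, against 62.0 and 65.3 CPM in head-thorax.

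Of 19 organic ion and drug transporters, 8 were higher and 4 lower (2 with overlapping genes' counts taken off). ABC transporters that were near-namesakes differed. Mdr50 had 60.9 and 62.0 CPM in the abdomen libraries, against 11.5 and 11.4 CPM in the head-thorax libraries (2.43 ± 0.057, adjusted p = 3.03e-59). Mdr65, the drug pump of the blood-brain barrier, had 7.61 and 6.74 CPM in the abdomen libraries, against 29.7 and 31.2 CPM in the head-thorax libraries (−2.09 ± 0.074, adjusted p = 2.58e-45). Atet, another ABC transporter, was lower with 15.04 and 15.1 CPM in abdomen, against 49.6 and 49.5 CPM in head-thorax (−1.72 ± 0.055), and MRP was not called at 309 and 304 CPM in abdomen, against 394 and 404 CPM in head-thorax. Organic anion transporters of the Oatp family were higher for 7 of 8 tested, Oatp74D not being called except with raw totals (1.01). Oatp58Db had 32.9 and 34.2 CPM in the abdomen libraries, against 1.22 and 1.19 CPM in the head-thorax libraries (4.80 ± 0.11, adjusted p = 3.42e-60). Oatp33Ea had 33.1 and 35.0 CPM in abdomen, against 12.0 and 10.7 CPM in head-thorax (1.58 ± 0.067) and Oatp58Dc 56.8 and 61.5 CPM in abdomen, against 21.2 and 21.4 CPM in head-thorax (1.48 ± 0.050). Oatp30B had 31894 counts in abdomen against 3269 in head-thorax, but the overlapping CG31883 held 23869 and 36 of them.

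Water and ion transporters were lower for 10 of 29 (34.5%, against 21.7% over all genes) and higher for 3 (10.3%, against 35.6%), with a median of −0.72. Subunits of the sodium pump, which sets the sodium and potassium gradients of cells, were among the lower genes. The alpha subunit Atpalpha had 655 and 669.6 CPM in the abdomen libraries, against 2076 and 2087 CPM in the head-thorax libraries (−1.65 ± 0.028, adjusted p = 1.19e-71), and the beta subunit nrv2 had 102 and 102 CPM in the abdomen libraries, against 330.4 and 334 CPM in the head-thorax libraries (−1.70 ± 0.029, adjusted p = 1.57e-70). The paralogous beta subunit nrv1, at 166 and 169 CPM in abdomen, against 295 and 299 CPM in head-thorax, stayed under 2-fold (−0.82 ± 0.028). kcc, which carries potassium and chloride out of cells, had 50.5 and 48.8 CPM in abdomen, against 214 and 219 CPM in head-thorax (−2.13 ± 0.034), its relative Ncc69 32.2 and 33.2 CPM in abdomen, against 99.6 and 92.3 CPM in head-thorax (−1.56 ± 0.042), and the aquaporin Drip 65.8 and 67.5 CPM in abdomen, against 155 and 157 CPM in head-thorax (−1.22 ± 0.033). The 3 higher genes were Nha1, Irk3 and Eglp1. Nha1, a sodium-proton antiporter, had 41.0 and 43.4 CPM in abdomen, against 20.8 and 20.4 CPM in head-thorax (1.04 ± 0.054), a call lost when the 2-fold limit was tested inside the model. Irk3, an inward rectifier potassium channel of the tubules, had 35.3 and 38.4 CPM in abdomen, against 11.4 and 10.4 CPM in head-thorax (1.75 ± 0.066) with 25.8% of its count in an overlapping gene, and the aquaporin relative Eglp1 had 12.8 and 12.9 CPM in abdomen with 3 counts in head-thorax, a ratio of 230.2 (95% exact counting interval 78.5 to 1119).

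Of 31 mitochondrial carriers and porins, 11 were higher (5 with overlapping genes' counts taken off), 6 lower and 14 not called, near the shares over all genes. The dicarboxylate carriers exchange malate and succinate for phosphate. Dic2 had 99.7 and 102 CPM in the abdomen libraries, against 0.219 and 0.0913 CPM in the head-thorax libraries (9.20 ± 0.11, adjusted p = 1.95e-82). Dic3 had 25.9 and 26.5 CPM in the abdomen libraries, against 0.0939 and 0.0456 CPM in the head-thorax libraries (8.38 ± 0.20, adjusted p = 6.38e-59), and Dic4 9.93 and 10.96 CPM in abdomen with 2 counts in head-thorax, a ratio of 284 (95% exact counting interval 78.3 to 2351). Dic1, the family member found in both pools, had 85.2 and 82.7 CPM in abdomen, against 61.2 and 60.6 CPM in head-thorax, with an overlapping gene holding 55.0% of its count. Ucp4C, an uncoupling protein relative, had 23.6 and 22.2 CPM in abdomen with 2 counts in head-thorax, a ratio of 612 (95% exact counting interval 169 to 5063).

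Phosphate carriers and porins differed between paralogues too. Mpcp1 had 20.7 and 21.7 CPM in the abdomen libraries, against 777 and 771 CPM in the head-thorax libraries (−5.18 ± 0.037, adjusted p = 4.02e-102), whereas Mpcp2 had 407 and 419 CPM in abdomen, against 692 and 695 CPM in head-thorax and was not called (−0.75 ± 0.026). porin, the main channel of the outer membrane, had 224 and 231 CPM in the abdomen libraries, against 857 and 838 CPM in the head-thorax libraries (−1.90 ± 0.027, adjusted p = 5.03e-77). Porin2 ran the other way, with 131 and 138 CPM in the abdomen libraries, against 5.63 and 5.29 CPM in the head-thorax libraries (4.62 ± 0.060, adjusted p = 6.65e-81). Rim2, the pyrimidine nucleotide carrier, was lower with 32.5 and 32.4 CPM in abdomen, against 194 and 193 CPM in head-thorax (−2.58 ± 0.037). The male reproductive markers given above moved with the carriers that were higher in abdomen, and flight muscle markers with those that were lower. Their part in these results was not tested.

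**Figure D3:**
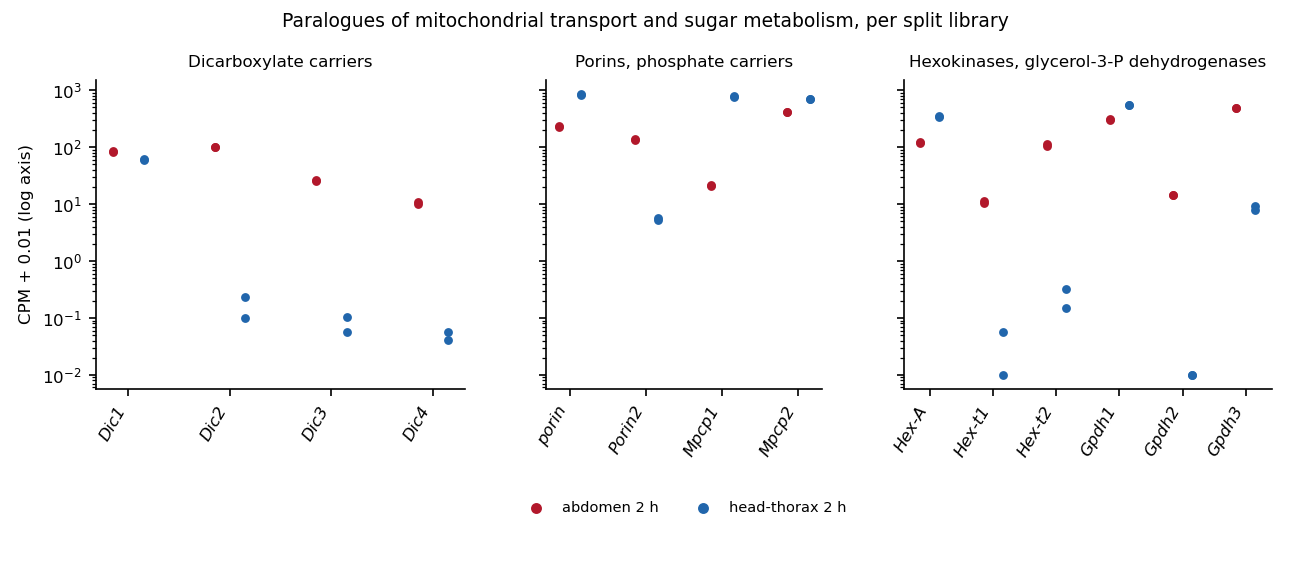
CPM plus 0.01 (log axis) in each split library of abdomen (red, left of each pair) and head-thorax (blue) for dicarboxylate carriers, porins and phosphate carriers, and hexokinases and glycerol-3-phosphate dehydrogenases. Dic2, Dic3, Dic4, Porin2, Hex-t1, Hex-t2, Gpdh2 and Gpdh3 lie far higher in abdomen, and porin, Mpcp1 and Hex-A lie lower; Dic1 shares reads with an overlapping gene.

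Among 13 phosphate and anion transporters 4 were higher and 1 was lower (0 with DESeq2 size factors). NaPi-T, a sodium-phosphate cotransporter of the tubules, had 67.6 and 69.6 CPM in the abdomen libraries, against 4.32 and 4.11 CPM in the head-thorax libraries (4.02 ± 0.069, adjusted p = 1.46e-70). dmGlut had 28.6 and 32.2 CPM in abdomen, against 4.35 and 3.56 CPM in head-thorax (2.93 ± 0.089) and MFS12 26.6 and 28.6 CPM in abdomen, against 1.82 and 1.14 CPM in head-thorax (4.17 ± 0.11). The fourth, MFS1, had 2.11 and 1.90 CPM in abdomen and no count in head-thorax, so it was at least 35.6-fold higher. MFS17 was lower with 125 and 119.9 CPM in abdomen, against 255 and 262 CPM in head-thorax (−1.08 ± 0.030), a call lost with DESeq2 size factors, and Picot was not called at 98.5 and 99.2 CPM in abdomen, against 76.3 and 77.1 CPM in head-thorax.

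Of 123 secreted proteins 28 were higher (16 with overlapping genes' counts taken off), 46 lower and 49 not called, with a median of −0.73. The shares were 22.8% higher and 37.4% lower, against 35.6% and 21.7% over all genes. Of 19 lipid carriers 5 were higher (3 with overlapping genes' counts taken off), 3 lower and 11 not called, and members of the sterol-binding Npc2 family went both ways. Npc2d had 37.4 and 36.5 CPM in the abdomen libraries, against 0.282 and 0.137 CPM in the head-thorax libraries (7.34 ± 0.15, adjusted p = 1.40e-64), and Npc2f had 34.5 and 34.7 CPM in abdomen, against 1.10 and 1.10 CPM in head-thorax (4.98 ± 0.11). Npc2a, the family member needed for sterol export from lysosomes, had 19.7 and 19.0 CPM in the abdomen libraries, against 53.3 and 52.5 CPM in the head-thorax libraries (−1.46 ± 0.052, adjusted p = 6.85e-45). The gut sterol transporter Npc1b, under 20 CPM, had 10.99 and 12.1 CPM in abdomen, against 0.157 and 0.137 CPM in head-thorax (6.25 ± 0.24). to, the takeout protein that binds small lipophilic ligands and is known from the fat body of the male head, had 7.69 and 7.71 CPM in the abdomen libraries, against 211 and 209.7 CPM in the head-thorax libraries (−4.77 ± 0.048, adjusted p = 5.86e-90). apolpp, the hemolymph lipoprotein, stayed under 2-fold at 2115 and 2005 CPM in abdomen, against 3803 and 3896 CPM in head-thorax (−0.90 ± 0.029). Its level in the 26 h head-thorax pool averaged 5032 CPM, and against that pool it passed 2-fold (−1.29).

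Signalling ligands were lower for 13 of 28 (46.4%, against 21.7% over all genes) and higher for 6 (21.4%, against 35.6%). Actbeta, an activin of the TGF-beta family, had 1.44 and 1.36 CPM in the abdomen libraries, against 37.4 and 36.5 CPM in the head-thorax libraries (−4.73 ± 0.100, adjusted p = 2.36e-63). Pvf3, a ligand of the PDGF and VEGF receptor, had 2.37 and 2.15 CPM in the abdomen libraries, against 30.2 and 28.3 CPM in the head-thorax libraries (−3.71 ± 0.096, adjusted p = 5.40e-56). The EGF receptor ligand spi had 19.0 and 18.7 CPM in abdomen, against 61.1 and 62.9 CPM in head-thorax (−1.72 ± 0.049), and the activin-like ligand daw had 12.5 and 12.7 CPM in abdomen, against 33.7 and 34.4 CPM in head-thorax (−1.43 ± 0.062). ImpL2 and Sdr are secreted proteins that bind insulin-like peptides. ImpL2 had 32.2 and 32.2 CPM in abdomen, against 67.1 and 66.5 CPM in head-thorax (−1.05 ± 0.043), a call lost with DESeq2 size factors (−0.91), without head-thorax library 1 (−0.98) and against the 26 h pool (−0.80). Sdr had 1.35 and 1.45 CPM in abdomen, against 19.7 and 19.7 CPM in head-thorax (−3.803 ± 0.12). Wnt6 was lower with 53.1 and 51.9 CPM in abdomen, against 139 and 141 CPM in head-thorax (−1.42 ± 0.035). myo, a relative of myostatin, was not called at 56.0 and 53.7 CPM in abdomen, against 87.2 and 86.9 CPM in head-thorax (−0.67 ± 0.038), and passed 2-fold against the 26 h pool (−1.02).

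The ligands higher in abdomen were scarce. upd1, a ligand of the JAK-STAT pathway, had 4.27 and 4.67 CPM in abdomen with 3 counts in head-thorax, a ratio of 81.0 (95% exact counting interval 27.4 to 395), and upd3 lay under 1 CPM in both pools and lost its call without abdomen library 1. Wnt4 was the one at 20 CPM or more, but 94.8% of its abdomen count can belong to the overlapping CG31909. With that count taken off in abdomen alone, its log2 ratio turned to −0.50.

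**Figure D4:**
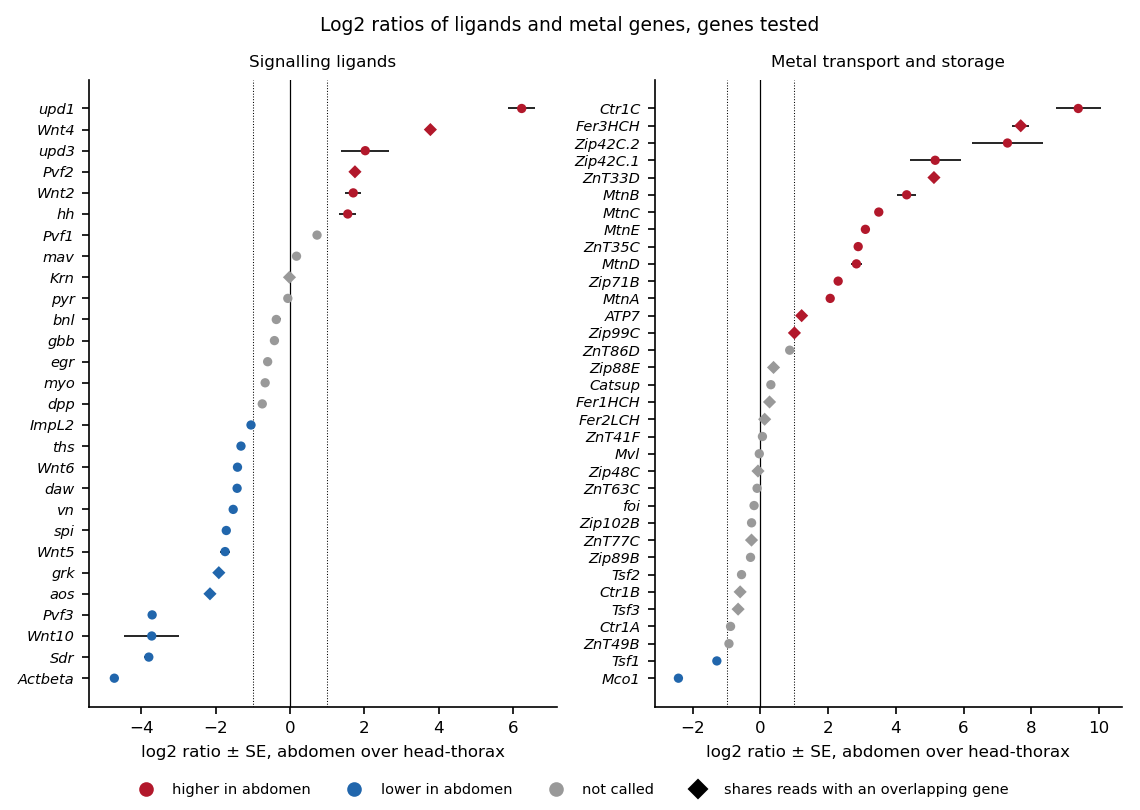
Log2 ratio of abdomen over head-thorax with its standard error for signalling ligands (left) and genes of metal transport and storage (right); red is higher, blue lower and grey not called, and diamonds share reads with an overlapping gene. Ligands sit mostly left of 0, and the 5 metallothioneins sit between 2.06 and 4.32.

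Chitin and peritrophic proteins were lower for 12 (38.7%, against 21.7% over all genes) and higher for 6 (19.4%, against 35.6%) of 31. Chitinases, which cut the chitin of cuticle and of the membrane that lines the midgut, split by gene. Cht12 had 35.7 and 39.2 CPM in the abdomen libraries, against 0.125 and 0.0456 CPM in the head-thorax libraries (8.601 ± 0.17, adjusted p = 7.01e-65). Cht8 had 0.254 and 0.368 CPM in the abdomen libraries, against 20.2 and 20.8 CPM in the head-thorax libraries (−5.97 ± 0.16, adjusted p = 3.90e-55). Chs2, the chitin synthase of the gut, was higher with 42.5 and 43.2 CPM in abdomen, against 12.7 and 12.2 CPM in head-thorax (1.78 ± 0.060), as was Peritrophin-15a, a protein of the peritrophic membrane, with 18.5 and 18.8 CPM in abdomen, against 0.157 and 0.0456 CPM in head-thorax (7.33 ± 0.21). Gasp, a chitin-binding protein of the tracheae, was lower with 8.83 and 9.09 CPM in abdomen, against 33.7 and 32.5 CPM in head-thorax (−1.89 ± 0.068). Imaginal disc growth factors are chitinase relatives without enzymatic activity. Idgf4 was lower with 270.0 and 278 CPM in abdomen, against 968 and 956 CPM in head-thorax (−1.81 ± 0.027, adjusted p = 5.13e-76), and Idgf3 was not called at 97.8 and 98.7 CPM in abdomen, against 106 and 106 CPM in head-thorax.

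Yellow proteins, secreted relatives of the pigment gene yellow, were lower for 7 of 11 tested (63.6%, against 21.7% over all genes). All 4 at 20 CPM or more were lower, of which yellow-c and yellow-d share most of their reads with overlapping genes. With those taken off in head-thorax alone the ratio of yellow-c turned, so no deficit in abdomen can be read for it. yellow-e had 3.38 and 3.74 CPM in the abdomen libraries, against 74.7 and 74.0 CPM in the head-thorax libraries (−4.37 ± 0.069, adjusted p = 5.03e-74), and yellow-f2, which converts dopachrome, had 22.1 and 24.0 CPM in abdomen, against 48.5 and 49.1 CPM in head-thorax (−1.07 ± 0.051), a call lost with DESeq2 size factors (−0.93) and against the 26 h pool (−0.64). yellow-b and yellow-h, under 20 CPM, were lower by similar amounts (−1.59 and −1.37). The 2 higher genes, yellow-k and y, lay under 5 CPM and their overlapping genes hold more reads than they do, so the count is 0 with overlapping genes' counts taken off.

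Hemolymph defence proteins were lower for 11 and higher for 9 of 34, or 7 and 5 with overlapping genes' counts taken off. The first 2 counts are 32.4% and 26.5%, against 21.7% and 35.6% over all genes. grass, a serine protease that acts upstream of Toll, had 7.44 and 8.67 CPM in the abdomen libraries, against 31.99 and 27.8 CPM in the head-thorax libraries (−1.89 ± 0.075, adjusted p = 2.77e-41). The protease psh had 8.96 and 8.67 CPM in abdomen, against 26.3 and 27.5 CPM in head-thorax (−1.61 ± 0.072), and GNBP2, a relative of the beta-glucan recognition proteins, had 10.9 and 9.75 CPM in abdomen, against 31.2 and 31.0 CPM in head-thorax (−1.603 ± 0.068). The clotting and matrix protein Tig had 22.6 and 22.0 CPM in abdomen, against 61.3 and 59.7 CPM in head-thorax (−1.45 ± 0.048). Tep4, a thioester protein, was not called at 223 and 223 CPM in abdomen, against 388 and 386 CPM in head-thorax (−0.80 ± 0.027). Of the 9 higher genes 8 were C-type lectins. lectin-30A had 175 and 169 CPM in the abdomen libraries, against 0.376 and 0.183 CPM in the head-thorax libraries (9.16 ± 0.091, adjusted p = 1.50e-90). lectin-29Ca had 138 and 134 CPM in the abdomen libraries, against 0.376 and 0.0913 CPM in the head-thorax libraries (9.003 ± 0.10, adjusted p = 1.72e-86). Below 20 CPM, lectin-21Ca had 1 count in head-thorax and a ratio of 773 (95% exact counting interval 138 to 30560.3), and lectin-21Cb likewise 1 count and a ratio of 305 (95% exact counting interval 54.4 to 12087). Several lectins of this family are known as seminal fluid proteins, so the list's name describes them poorly, and the male reproductive markers moved with them. Their part in these values was not tested.

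Of 265 enzymes, 73 were higher (27.5%), 58 lower (21.9%) and 134 not called, with a median of 0.01. Over all genes these shares were 35.6% and 21.7%. Lists within the class differed. Among 36 glutathione S-transferases, which conjugate glutathione to toxic compounds, 8 were higher (22.2%) and 6 lower (16.7%), both below the shares over all genes. GstS1 had 346 and 355 CPM in the abdomen libraries, against 111 and 113 CPM in the head-thorax libraries (1.65 ± 0.029, adjusted p = 7.10e-70). The theta-class members GstT3 and GstT4 were higher, GstT3 with 27.8 and 27.3 CPM in abdomen, against 8.64 and 8.81 CPM in head-thorax (1.66 ± 0.073) and GstT4 with 239.7 and 246 CPM in abdomen, against 106 and 99.7 CPM in head-thorax (1.24 ± 0.030). GstZ2, of the zeta class that isomerises maleylacetoacetate in tyrosine breakdown, was lower with 12.0 and 12.8 CPM in the abdomen libraries, against 58.7 and 59.3 CPM in the head-thorax libraries (−2.24 ± 0.055, adjusted p = 7.75e-58). GstD1 was not called at 356 and 376 CPM in abdomen, against 580.3 and 581 CPM in head-thorax (−0.66 ± 0.026). Below 20 CPM, GstE14, which acts in ecdysteroid synthesis, was lower with 0.127 and 0.227 CPM in abdomen, against 8.80 and 8.99 CPM in head-thorax (−5.54 ± 0.23), and GstE2 and GstE4 were lower too (−3.53 and −4.77).

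UDP-glycosyltransferases were higher for 10 (30.3%) and lower for 6 (18.2%) of 33, near the 35.6% and 21.7% over all genes. Ugt305A1 had 51.6 and 49.2 CPM in the abdomen libraries, against 0.908 and 1.597 CPM in the head-thorax libraries (5.396 ± 0.10, adjusted p = 3.18e-67). It was the single member at 20 CPM or more called higher on the counts as deposited. Ugt49C1 had 5.58 and 5.55 CPM in abdomen, against 21.3 and 21.2 CPM in head-thorax (−1.93 ± 0.085) and Ugt35B1 40.7 and 43.3 CPM in abdomen, against 121 and 122 CPM in head-thorax (−1.52 ± 0.038), both lower. Against the 26 h pool Ugt35B1 lost its call (−0.89) and the list's lower count was 3. Ugt50B3, the most abundant member not called, had 319.7 and 306 CPM in abdomen, against 277 and 281 CPM in head-thorax, but its reads differ in origin. The flight muscle gene TpnC4, which overlaps it, held 50 of its 18372 counts in abdomen and 14086 of its 15014 in head-thorax, so the near-equal levels cannot be read as those of Ugt50B3. Ugt49B2 had 0.718 and 0.482 CPM in abdomen and no count in head-thorax, and was at least 10.4-fold higher.

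Esterases and juvenile hormone enzymes were higher for 5 (3 with overlapping genes' counts taken off) and lower for 6 of 18. The shares were 27.8% and 33.3%, against 35.6% and 21.7% over all genes. The alpha-esterase genes form a cluster, and they went both ways. alpha-Est6 had 24.5 and 22.0 CPM in the abdomen libraries, against 0.376 and 0.319 CPM in the head-thorax libraries (6.01 ± 0.16, adjusted p = 1.44e-54), and alpha-Est5 had 41.3 and 40.9 CPM in abdomen, against 16.7 and 18.6 CPM in head-thorax (1.23 ± 0.058). alpha-Est8 had 43.7 and 39.8 CPM in the abdomen libraries, against 153 and 150.4 CPM in the head-thorax libraries (−1.87 ± 0.037, adjusted p = 2.91e-65), alpha-Est7 138 and 144 CPM in abdomen, against 326 and 333 CPM in head-thorax (−1.22 ± 0.029) and alpha-Est1 28.7 and 30.9 CPM in abdomen, against 64.6 and 63.6 CPM in head-thorax (−1.10 ± 0.045). Against the 26 h pool the calls of alpha-Est7 (−0.96) and alpha-Est1 (−0.80) were lost, and alpha-Est1 also lost its call with DESeq2 size factors (−0.95). Juvenile hormone is made in the corpora allata behind the brain. jhamt, the methyltransferase of its last steps, had 0.380 and 0.340 CPM in the abdomen libraries, against 10.96 and 10.997 CPM in the head-thorax libraries (−4.93 ± 0.19, adjusted p = 1.04e-41). Jhe, the esterase that degrades the hormone, had 1.99 and 1.53 CPM in abdomen, against 9.86 and 10.997 CPM in head-thorax (−2.59 ± 0.14), and its duplicate Jhedup 0.127 and 0.113 CPM in abdomen, against 4.38 and 4.24 CPM in head-thorax (−5.14 ± 0.31). The epoxide hydrolase Jheh3 was higher with 52.99 and 54.5 CPM in abdomen, against 25.3 and 26.2 CPM in head-thorax (1.07 ± 0.049). Est-6, an esterase of the male seminal fluid and of the antenna, had 736 and 728 CPM in abdomen, against 809 and 812 CPM in head-thorax and was not called.

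Lipid enzymes had no member lower in abdomen: 8 of 34 were higher (5 with overlapping genes' counts taken off) and 26 not called, with a median of 0.36. The share higher was 23.5%, below the 35.6% over all genes, of which 21.7% were lower. FASN2, a fatty acid synthase of the oenocytes, had 529.9 and 558 CPM in the abdomen libraries, against 27.3 and 27.5 CPM in the head-thorax libraries (4.32 ± 0.036, adjusted p = 1.67e-96), with a mean of 62.1 CPM in the 26 h head-thorax pool. The elongases sit and Elo68alpha were higher. sit had 28.2 and 29.0 CPM in the abdomen libraries, against 0.908 and 1.32 CPM in the head-thorax libraries (4.73 ± 0.12, adjusted p = 1.68e-56), and Elo68alpha had 22.9 and 22.3 CPM in abdomen, against 1.53 and 1.96 CPM in head-thorax (3.72 ± 0.12). Genes of the general fatty acid pathway lay near 2-fold and were not called. FASN1 had 2118 and 2180.4 CPM in abdomen, against 1217 and 1199 CPM in head-thorax (0.83 ± 0.027), ACC, which makes malonyl-CoA, 941 and 961 CPM in abdomen, against 495 and 484 CPM in head-thorax (0.96 ± 0.026), and the citrate lyase ATPCL 515 and 525 CPM in abdomen, against 262 and 261 CPM in head-thorax (0.99 ± 0.026). ACC (1.10) and ATPCL (1.14) were called higher with DESeq2 size factors, FASN1 with raw totals (1.04). Without head-thorax library 1 ACC (1.041) and ATPCL (1.06) were called too, as was ATPCL without abdomen library 1 (1.004). Desat1, the delta-9 desaturase, had 1984 and 1955 CPM in abdomen, against 1388 and 1402 CPM in head-thorax and was not called (0.50 ± 0.027). The 3 oenocyte markers matched were Cyp4g1, FarO and eloF, of which FarO and eloF are also in this list. They summed to 17846 and 17977 CPM in abdomen against 994 and 991 CPM in head-thorax. Desat1, not called, was the 4th oenocyte marker listed and was left out of the sum by a mismatch in the spelling of its symbol. For FarO, the overlapping Mct1 held 5229 counts in abdomen, more than the 2048 of FarO. The part of oenocytes in these values was not tested.

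Of 30 sugar and polyol enzymes 8 were higher and 8 lower, or 5 and 5 with overlapping genes' counts taken off. The shares were 26.7% each, against 35.6% and 21.7% over all genes. Among hexokinases, isoenzymes lay on opposite sides. Hex-A, the main hexokinase, had 120.0 and 125 CPM in the abdomen libraries, against 345 and 346 CPM in the head-thorax libraries (−1.49 ± 0.029, adjusted p = 1.86e-66). Hex-t2, a hexokinase of the testis, had 103 and 111 CPM in the abdomen libraries, against 0.313 and 0.137 CPM in the head-thorax libraries (8.78 ± 0.11, adjusted p = 1.38e-82), and Hex-t1 had 10.6 and 11.3 CPM in abdomen with 1 count in head-thorax, a ratio of 593 (95% exact counting interval 106 to 23452). Glycerol-3-phosphate dehydrogenases of the cytosol, which feed the glycerophosphate shuttle, differed too, but none was called lower. Gpdh3 had 492 and 493 CPM in the abdomen libraries, against 9.27 and 7.89 CPM in the head-thorax libraries (5.82 ± 0.045, adjusted p = 7.68e-100). Gpdh2 had 14.6 and 14.4 CPM in abdomen and no count in head-thorax, at least 259.7-fold higher, whereas Gpdh1, the isoenzyme of flight muscle, had 306 and 305 CPM in abdomen, against 539.7 and 548 CPM in head-thorax and was not called (−0.83 ± 0.026). The mitochondrial partner Gpo1 was lower with 67.9 and 72.3 CPM in the abdomen libraries, against 473 and 462 CPM in the head-thorax libraries (−2.73 ± 0.032, adjusted p = 3.37e-85).

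Glycogen and trehalose genes differed in direction. Glys, the glycogen synthase, had 45.8 and 49.9 CPM in the abdomen libraries, against 307 and 306 CPM in the head-thorax libraries (−2.67 ± 0.034, adjusted p = 8.52e-82), and Glyp, the glycogen phosphorylase, had 186 and 194 CPM in abdomen, against 865 and 855 CPM in head-thorax (−2.17 ± 0.028), both lower. Tps1, which makes the blood sugar trehalose, was higher with 1176 and 1242 CPM in the abdomen libraries, against 465 and 466 CPM in the head-thorax libraries (1.38 ± 0.027, adjusted p = 1.52e-66), and Treh, which cleaves trehalose, was not called at 209 and 217 CPM in abdomen, against 393 and 381 CPM in head-thorax (−0.86 ± 0.027). Pepck2, a paralogue of the gluconeogenic enzyme PEP carboxykinase, was lower with 3.59 and 3.83 CPM in abdomen, against 47.2 and 48.2 CPM in head-thorax (−3.67 ± 0.076). Men, the malic enzyme that yields NADPH, was not called with 1215 and 1239.7 CPM in abdomen, against 629 and 621 CPM in head-thorax (0.97 ± 0.026), but was called higher with DESeq2 size factors (1.12), without head-thorax library 1 (1.05) and against the 26 h pool (1.20).

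Amino acid and one-carbon enzymes were the enzyme list with no member higher: 13 of 29 were lower and 16 not called, with a median of −0.94. The share lower was 44.8%, against 21.7% over all genes, of which 35.6% were higher. Of the 13, 10 had reads of their own. The pathway from phenylalanine through tyrosine to fumarate was lower at each step measured. Hn, which makes tyrosine from phenylalanine, had 90.0 and 90.9 CPM in the abdomen libraries, against 351 and 348 CPM in the head-thorax libraries (−1.95 ± 0.030, adjusted p = 3.94e-75). Tat, the tyrosine aminotransferase, had 73.1 and 71.3 CPM in the abdomen libraries, against 589 and 582 CPM in the head-thorax libraries (−3.02 ± 0.031, adjusted p = 6.35e-90). Hpd, which makes homogentisate, had 93.2 and 94.2 CPM in the abdomen libraries, against 669.7 and 671 CPM in the head-thorax libraries (−2.84 ± 0.029, adjusted p = 4.40e-89). These 3 enzymes stood at their lowest in abdomen, and in the 26 h head-thorax pool they averaged 234, 400.5 and 378 CPM, below the 2 h pool and above abdomen. hgo, which opens the homogentisate ring, had 20.7 and 19.7 CPM in abdomen, against 73.0 and 70.9 CPM in head-thorax (−1.84 ± 0.048), and Faa, which splits fumarylacetoacetate, 10.8 and 10.1 CPM in abdomen, against 38.3 and 41.3 CPM in head-thorax (−1.93 ± 0.065). GstZ2 of the step between them is given above.

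Other lower enzymes of the list act on glutamate, proline and tryptophan. Gs2, a glutamine synthetase, had 227 and 234 CPM in the abdomen libraries, against 1457 and 1457 CPM in the head-thorax libraries (−2.66 ± 0.028, adjusted p = 7.11e-88). slgA, the proline dehydrogenase, had 52.1 and 52.0 CPM in abdomen, against 217 and 216 CPM in head-thorax (−2.06 ± 0.034), and Oat, which converts ornithine, 14.9 and 14.5 CPM in abdomen, against 46.7 and 48.6 CPM in head-thorax (−1.70 ± 0.056), a call lost against the 26 h pool (−0.99). v, the tryptophan oxygenase, had 11.1 and 12.0 CPM in abdomen, against 27.0 and 30.0 CPM in head-thorax (−1.28 ± 0.068). Sardh, which degrades sarcosine, had 0.930 and 1.10 CPM in abdomen, against 19.0 and 19.3 CPM in head-thorax (−4.20 ± 0.13). Gnmt, which makes sarcosine, lay on the other side of 0 without being called, at 242 and 247 CPM in abdomen, against 164 and 156 CPM in head-thorax (0.61 ± 0.029), and was called higher against the 26 h pool (1.21). P5CS, the first enzyme of proline synthesis, was the most abundant not called among genes with reads of their own, at 271 and 275 CPM in abdomen, against 363 and 354 CPM in head-thorax (−0.39 ± 0.027). Of the fat body markers tested, Lsp2 was lower (−8.23), while Yp1 (−0.77), apolpp (−0.90) and FASN1 (0.83) were not called. Their part was not tested.

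**Figure D5:**
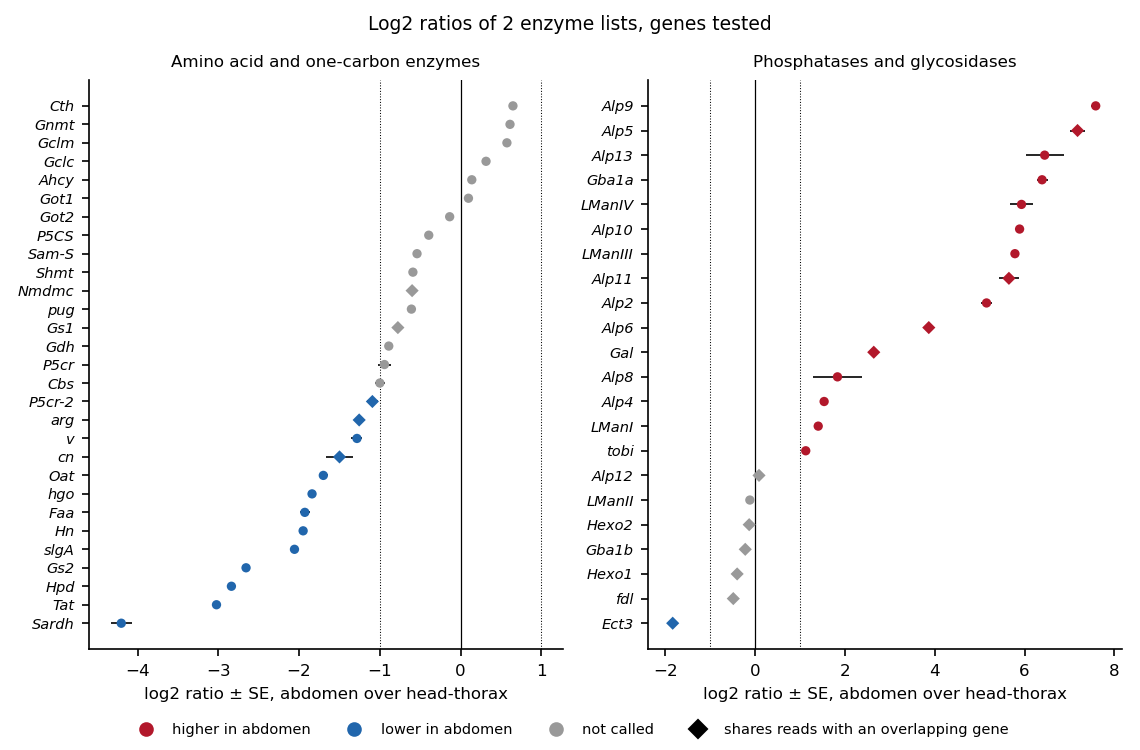
Log2 ratio of abdomen over head-thorax with its standard error for amino acid and one-carbon enzymes (left) and for phosphatases and glycosidases (right); red is higher, blue lower and grey not called, and diamonds share reads with an overlapping gene. The left list runs down to −4.20 with no gene called higher, and the right list runs up to 7.58 with a single gene, Ect3, called lower.

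Phosphatases and glycosidases showed the reverse. Of 22 tested 15 were higher and 1 lower, with a median of 2.24, and 11 of the 15 had reads of their own. The share higher was 68.2%, against 35.6% over all genes. Alkaline phosphatases, membrane enzymes of absorptive epithelia, were the largest family in the list. Alp9 had 80.9 and 77.9 CPM in the abdomen libraries, against 0.376 and 0.456 CPM in the head-thorax libraries (7.58 ± 0.11, adjusted p = 2.95e-78), and Alp10 had 54.5 and 54.0 CPM in the abdomen libraries, against 0.939 and 0.867 CPM in the head-thorax libraries (5.89 ± 0.10, adjusted p = 4.23e-70). Alp4, known from the tubules and brain, had 112 and 114 CPM in abdomen, against 36.8 and 41.8 CPM in head-thorax (1.54 ± 0.040), and Alp2 had 26.4 and 27.9 CPM in abdomen, against 0.877 and 0.593 CPM in head-thorax (5.15 ± 0.13). Gba1a, a glucocerebrosidase, had 41.2 and 43.3 CPM in the abdomen libraries, against 0.532 and 0.456 CPM in the head-thorax libraries (6.39 ± 0.12, adjusted p = 1.53e-66), and averaged 3.30 CPM in the 26 h head-thorax pool. Lysosomal mannosidases again split between paralogues, since LManIII had 83.3 and 81.2 CPM in abdomen, against 1.85 and 0.958 CPM in head-thorax (5.79 ± 0.086) while LManII had 278 and 272 CPM in abdomen, against 299 and 296 CPM in head-thorax and was not called (−0.12 ± 0.027). The alpha-glucosidase tobi had 849 and 865 CPM in abdomen, against 397 and 387 CPM in head-thorax (1.13 ± 0.026), a call lost against the 26 h pool (0.63) and with overlapping genes' counts taken off (0.96). For Ect3, the lower gene and the one lost with overlapping genes' counts taken off, an overlapping gene holds more reads than it does. Of the 17 members at 20 CPM or more, 5 were also higher in the head-thorax pool of 26 h than in that of 2 h, and these were Alp5, Alp9, Alp10, Gba1a and LManIII. Of the 5 midgut markers, Mal-A1 (1.76) and Jon65Aiv (1.08) were higher in abdomen, and betaTry (0.17), LysB (−0.50) and Amy-p (−0.87) were not called. All 5 tubule markers were higher. Their part was not tested.

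Purine enzymes and adenosine deaminases were higher for 7 (4 with overlapping genes' counts taken off) and lower for 4 of 19. These shares, 36.8% and 21.1%, were near the 35.6% and 21.7% over all genes. Against the 26 h pool 1 was lower. Gart, which acts in purine synthesis, had 37.5 and 37.9 CPM in the abdomen libraries, against 104 and 102 CPM in the head-thorax libraries (−1.45 ± 0.039, adjusted p = 1.23e-54), and Prat2, which makes the first committed intermediate, had 87.5 and 87.5 CPM in abdomen, against 207 and 201 CPM in head-thorax (−1.22 ± 0.031). Both lost the call against the 26 h pool, at −0.91 for Gart and −0.70 for Prat2. ry, the xanthine dehydrogenase of purine breakdown, had 24.8 and 24.96 CPM in abdomen, against 50.9 and 49.8 CPM in head-thorax (−1.02 ± 0.049). Its call was lost with DESeq2 size factors (−0.87), with the 4 libraries at 2 h alone (−0.996), without head-thorax library 1 (−0.94) and against the 26 h pool (−0.71). The urate oxidase Uro of the tubules, the next step, had 51.7 and 51.8 CPM in the abdomen libraries, against 2.72 and 1.87 CPM in the head-thorax libraries (4.44 ± 0.087, adjusted p = 3.46e-66). AOX1, an aldehyde oxidase related to ry, was not called at 512 and 526 CPM in abdomen, against 281 and 285 CPM in head-thorax (0.88 ± 0.026), and was called higher with DESeq2 size factors (1.02). The secreted adenosine deaminase Adgf-E had 32.7 and 33.9 CPM in abdomen with 3 counts in head-thorax, a ratio of 599.6 (95% exact counting interval 205 to 2909.8).

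Peptidases other than trypsins were lower for 8 and higher for 3 of 22, or 5 and 1 with overlapping genes' counts taken off. The first 2 counts are 36.4% and 13.6%, against 21.7% and 35.6% over all genes. Ance, the fly angiotensin-converting enzyme, had 104 and 110.3 CPM in the abdomen libraries, against 51.3 and 49.2 CPM in the head-thorax libraries (1.094 ± 0.038, adjusted p = 1.68e-45), whereas its relative Ance-5 had 31.6 and 34.3 CPM in the abdomen libraries, against 108 and 106 CPM in the head-thorax libraries (−1.69 ± 0.040, adjusted p = 5.32e-59). The neprilysins Nep3 and Nep2 were lower, Nep3 with 7.39 and 7.65 CPM in abdomen, against 31.1 and 30.8 CPM in head-thorax (−2.04 ± 0.071) and Nep2 with 15.9 and 17.5 CPM in abdomen, against 49.9 and 50.01 CPM in head-thorax (−1.57 ± 0.054). The remaining higher genes, Bace and Nep5, have overlapping genes that hold more reads than they do. CtsL1, a lysosomal cathepsin, was not called at 353 and 362 CPM in abdomen, against 349 and 349 CPM in head-thorax.

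Carbonic anhydrases and sulfotransferases were higher for 7 (46.7%, against 35.6% over all genes) and lower for 2 (13.3%, against 21.7%) of 15. The count of lower genes was 4 without abdomen library 2, 4 without head-thorax library 2 and 1 against the 26 h pool. CAH15 had 23.3 and 22.6 CPM in the abdomen libraries, against 0.0626 and 0.0913 CPM in the head-thorax libraries (8.19 ± 0.21, adjusted p = 7.62e-56), and CAH4 had 25.2 and 24.8 CPM in abdomen with 3 counts in head-thorax, a ratio of 449 (95% exact counting interval 153 to 2179). Under 20 CPM, CAH5, CAH14 and CAH16 had at most 2 counts in head-thorax, with ratios of 256 (95% exact counting interval 45.5 to 10138), 191 (95% exact counting interval 52.5 to 1582) and 426 (95% exact counting interval 76.0 to 16849). CAH9 was lower with 6.25 and 7.51 CPM in the abdomen libraries, against 42.6 and 42.4 CPM in the head-thorax libraries (−2.60 ± 0.069, adjusted p = 5.83e-55), and CAH2 was not called at 84.4 and 82.6 CPM in abdomen, against 128 and 123 CPM in head-thorax (−0.59 ± 0.033).

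Acetyltransferases and pigment enzymes were few, with 2 of 7 higher and 4 lower. The 3 enzymes of beta-alanine conjugation, known from cuticle tanning and from transmitter recycling around photoreceptors, were lower. b, which makes beta-alanine, had 5.92 and 5.61 CPM in the abdomen libraries, against 187 and 191 CPM in the head-thorax libraries (−5.04 ± 0.053, adjusted p = 9.44e-89). e, which joins beta-alanine to dopamine or histamine, had 3.85 and 3.57 CPM in the abdomen libraries, against 65.6 and 59.0 CPM in the head-thorax libraries (−4.09 ± 0.074, adjusted p = 8.03e-69), and t, which cleaves the conjugate, had 11.6 and 14.2 CPM in the abdomen libraries, against 115.1 and 119.5 CPM in the head-thorax libraries (−3.15 ± 0.050, adjusted p = 5.39e-74). Eye markers moved with them, and their part was not tested. The fourth lower gene, AANATL2, lay under 3 CPM (−2.40), and an overlapping gene holds more reads than it does. AANATL7, one of the arylalkylamine N-acetyltransferases, was higher with 19.9 and 21.2 CPM in abdomen, against 1.63 and 1.597 CPM in head-thorax (3.67 ± 0.12) and shares 26.2% of its count. AANATL4 was higher near 1 CPM with 2 counts in head-thorax, a ratio of 24.2 (95% exact counting interval 6.38 to 205), and AANATL3 was not called at 40.2 and 37.97 CPM in abdomen, against 32.4 and 32.03 CPM in head-thorax.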

How the data were processed

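The files hold whole-number counts per gene for 6 libraries, as deposited by the authors, from single-end reads of 50 nt, per the labels' protocols. The aligner, the counter, the genome build and the annotation were not given in the sources used here. Gene symbols, overlaps and transposable elements were taken from the BDGP6.54 annotation, to which 16735 of 16942 genes matched. The members, the lists and the tests were chosen with earlier results of these data known.

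Counts were tested with edgeR 4.0.16 (R 4.3.3; TMM, filterByExpr, quasi-likelihood) in 1 fit of all 6 libraries with 3 residual degrees of freedom, with Benjamini-Hochberg adjustment over the 14694 genes tested. The technical coefficient of variation was 1.63%. A call needed an adjusted p under 0.05 and a difference of at least 2-fold. CPM were scaled by TMM effective library size. Gene lengths were not used, so levels are not comparable between genes. On simulated counts of 14203 genes for this comparison, all 101 genes changed 3-fold and all 99 changed 8-fold were called (100%), with 0 false calls. The simulation changed only these genes, up or down at random, with 1 dispersion for all genes and no reads shared between neighbours. In the data 57.3% of genes tested were called, so the simulation does not show how reliable the calls are here.

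Named genes in each list were those at 20 CPM or more in either pool, outside a set of 17 genes with near-identical counts and with reads of their own: up to 3 called higher and up to 3 called lower, taken by size of log2 ratio, and the most abundant not called. All Hox genes were named. Other genes named are paralogues, pathway members or members of small counts, and were chosen after their values were seen. Of 501 list entries, 4 matched no gene. Genes not in the files were not analysed here.

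Where head-thorax held 0 counts, a fold is a lower bound against 3 counts in the whole pool, and with 1 to 3 counts it is a ratio with an exact 95% interval. Intervals and floors cover counting error only. Split libraries were compared with a two-sided exact binomial test for genes holding 10 or more counts in the pair. Alternatives included raw library totals, DESeq2 1.42.0 size factors and its Wald test, no filter on low counts, and a block for the split number. Others were the 26 h head-thorax pool in place of the 2 h pool, the 4 libraries at 2 h alone, and leaving out each library. In a further one, the counts of overlapping genes were taken off, only in the pool where a gene was higher.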

Additional observations from a re-analysis of the deposited data

How the results depend on the processing

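The depth limits genes near 0 in one pool, whose fold is a bound or has a wide interval, and pools without replicate flies limit every call. Of 3307 values of named genes under other settings, 3195 kept direction and side of the threshold, 61 lost the call, 24 gained it and 27 turned sign. Of 199 named genes called, 21 lost the call in some setting with the sign kept, and 5 turned sign in some setting. For 9 named genes the overlapping genes hold 100% or more of the count, so no value was taken with those counts off. The median ratio over all tested genes shifted by 0.21 (log2) with raw totals and by 0.14 with DESeq2 size factors.

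Counts of calls moved as follows. With overlapping genes' counts taken off, 3348 of all genes, 1353 of genes at 20 CPM or more and 16 secreted proteins were higher. With a limit of 50 CPM in place of 20 CPM, 1165 were higher and 1184 lower. Of genes at 20 CPM or more with reads of their own, 1224 were higher. At 20 CPM or more, 4 transcription factors were higher and 15 lower, 11 secreted proteins higher and 28 lower, and 42 enzymes higher. These limits test fewer genes by construction. The restriction to genes with reads of their own and the omission of members spanning a transposable element were chosen after seeing the data.

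Leaving out 1 library gave 5008 to 5454 genes higher and 3012 to 3244 lower, at 20 CPM or more 2143 to 2214 and 1728 to 1846. By class it gave 12 to 14 and 24 to 28 transcription factors, 50 to 52 and 36 to 38 transporters, 27 to 30 and 44 to 49 secreted proteins, and 71 to 80 and 56 to 61 enzymes.

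Taking off overlapping genes, in the higher pool alone, turned the log2 ratio of Scr to −3.10, nub to −3.43, Hnf4 to −0.085 and svp to −0.45. It also turned Oatp74D to −0.89, Dic1 to −0.69, Wnt4 to −0.50, CtsL1 to −0.022 and yellow-c to 1.97. These are bounds and show no opposite direction. With the overlapping gene taken off both pools, Dic1 kept 2223 counts in abdomen and 1577 in head-thorax. Likewise CtsL1 kept 20295 and 18182, and nub 21 and 12. The ratio of Indy, near 0, turned to −0.0033 with overlapping genes taken off, −0.0064 without mitochondrial and near-identical genes, and −0.014 without a filter. It was −0.0013 with the replicate block and ranged from −0.0030 to 0.049 leaving out 1 library. DESeq2 size factors, raw totals and the DESeq2 Wald test turned ZnT63C to 0.045, 0.11 and 0.042, Idgf3 to 0.037, 0.10 and 0.038, and LManII to 0.029, 0.092 and 0.030. Raw totals turned Est-6 to 0.062. The 26 h head-thorax pool as partner turned ZnT63C to 0.34, Idgf3 to 0.0090 and Est-6 to 0.43. The cause was not tested.

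The libraries share numbers 1 and 2, which mark the portions of each sample and pair nothing across pools. Deviations of same-numbered libraries correlated at 0.0012, 0.020 and 0.11 over 10917 genes. With the replicate block 5222 genes were higher and 3195 lower, against 5233 and 3194 without it.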

Other observations

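Counts of 17 genes ran almost in parallel, each lying no further than 0.3 (log2) from a shared level in all 6 libraries. The set took 9.99% and 9.41% of counts in the abdomen libraries, against 6.51% and 6.70% in the head-thorax libraries at 2 h and 10.1% and 9.89% at 26 h. In BDGP6.54, 18 genes of the files span an annotated copia element, a retrotransposon of the long terminal repeat type, and 16 of them are in the set. CG11400, outside the set, holds a fragment of 80 bp and had 1143 and 1638 counts in the abdomen libraries. sls, also outside it, holds an element of 5146 bp and had 149590 and 210464. CG34347, in the set, holds an element of 5144 bp and had 120054 and 167940. Snap25 is the member of the set for which this annotation has no copia element. None of the set was named above.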
